A study of Mus musculus with 8 samples.

Results

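Semaphorins, plexins, neuropilins, ephrins and Eph receptors are the ligands and receptors of a pair of contact and guidance signalling systems. They were followed here in mouse megakaryocytes, the marrow cells that release platelets, after 3 days of culture in liquid or in a soft hydrogel. The genes were chosen by symbol alone (Sema3 to Sema7, Plxn, Epha, Ephb, Efna, Efnb, Nrp1 and Nrp2), and 2 antisense transcripts were dropped, which left 49 of the 27679 genes in the counts table. All cultures came from bone marrow of wild-type C57BL/6 mice, from which lineage-positive cells had been removed with magnetic beads. The 4 hydrogel libraries came from cells kept in a gel of 2% methylcellulose (Young modulus 30 to 60 Pa), and the 4 liquid libraries from cells in liquid medium. The submitters describe them as independent biological replicates. In both arms the larger, mature cells were collected on a 2 to 4% BSA gradient, so the libraries are bulk samples of enriched cells. No age or sex of the mice, nor their number per culture, is stated in the labels.

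Semaphorins are secreted (class 3) or membrane-bound proteins (classes 4 to 7 in vertebrates), and plexins are their receptors, whose cytoplasmic part acts on small GTPases of the Ras and Rap kind and so on the cytoskeleton. Neuropilins lack signalling activity of their own and serve as co-receptors, for class 3 semaphorins together with plexins and for VEGF together with VEGF receptors. Eph receptors are receptor tyrosine kinases, and their ligands, the ephrins, sit on the surface of neighbouring cells, anchored by a lipid (ephrin-A) or spanning the membrane (ephrin-B). In platelets, Sema4D, ephrin-B1 and some Eph receptors are known to act when platelets touch each other during clot growth. In macrophages and dendritic cells, several plexins and both neuropilins are known surface receptors.

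Library totals ran from 27012172 to 49281611 counts, and 13845 genes had enough counts to be tested. Megakaryocyte transcripts were abundant in every library: 13 markers summed to 25916 to 41780 counts per 1000000 (CPM, scaled between libraries by TMM) in liquid and to 21107 to 30659 CPM in hydrogel, and 9 of the 13 fell. The 18 monocyte and macrophage markers summed to 1015 to 2161 CPM in liquid and to 3677 to 7683 CPM in hydrogel. Of these, 14 rose and 0 fell, and none had a mean of 0 in either culture (the lowest was Marco in liquid, at 0.0392 CPM). Hydrogel 1 and liquid 2 stood between the other libraries, at 16.8 and −17.0 on a first principal component (65.1% of the variance) where the others lay at 46.1 to 52.3 and at −53.1 to −47.4. In the macrophage sum they held the lowest hydrogel value and the highest liquid value. Neutrophil markers summed to 270.1 to 1196 CPM in liquid and to at most 616.6 CPM in hydrogel. Of 6 tested, 1 rose and 1 fell. Mast cell and basophil markers summed to 89.6 to 490.6 CPM in liquid and to 50.8 to 157 CPM in hydrogel. Of 6 tested, 0 rose and 5 fell. Both of these sums were highest in liquid 2 and lowest in hydrogel 1, so these libraries were extremes there and not in between. T and natural killer cell markers summed to at most 7.96 CPM in any library, and Cd3d, Cd3g and Ncr1 were at 0 in hydrogel.

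Of the 49 genes, 22 were expressed, taken as a mean of at least 1 CPM in at least 1 culture, and 25 had enough counts for the test. Expressed were 7 of 9 plexins, both neuropilins, 8 of 19 semaphorins, 3 of 11 Eph receptors and 2 of 8 ephrins. Epha7, Sema6c and Efnb3 were tested at means under 1 CPM. The 24 untested genes had 1 to 75 counts each over all 8 libraries. They included all 5 ephrin-A genes, 6 of the 7 class 3 semaphorins, Sema5a, and the plexins Plxna3 and Plxnb1 (36 and 9 counts). Epha3, Epha5, Epha6 and Sema5b had no row under their identifiers in the counts table, so they could not be analysed here.

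Most plexin and both neuropilin transcripts expressed here were higher in hydrogel, and 2 of the 7 Eph and ephrin genes tested were lower. By edgeR's quasi-likelihood test with Benjamini-Hochberg adjustment over all genes tested, 5 of 9 plexins, both neuropilins and 3 of 19 semaphorins rose, and none of the 18 tested among these 30 genes fell. Of the 19 Eph and ephrin genes 7 were tested, of which Ephb1 and Efnb1 fell and none rose. Efna5, described below, was not among those 7. Over all 13845 genes tested, 29.3% were called, 15.1% higher in hydrogel and 14.1% lower. Higher calls were 51.7% of all calls, 41.3% with upper-quartile scaling and 60.1% with library totals alone. The 10 genes that rose and 2 that fell are 10 and 2 of 25 tested, with a median log2 change of 0.08 over the 25 beside −0.01 over all genes tested. Of the genes that rose, 6 did so at least 2-fold, as did 6.89% of all genes tested, and 0 fell at least 2-fold, beside 3.08%. The median was 0.62 over the 18 semaphorin, plexin and neuropilin genes tested and −0.29 over the 7 Eph and ephrin genes tested. All 49 genes together took 0.147 to 0.191% of the counts in the hydrogel libraries and 0.101 to 0.116% in the liquid libraries. A filter on low counts can pass a gene through the culture in which it is high, and the counts of calls are given as a description of these genes.

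**Figure D1:**
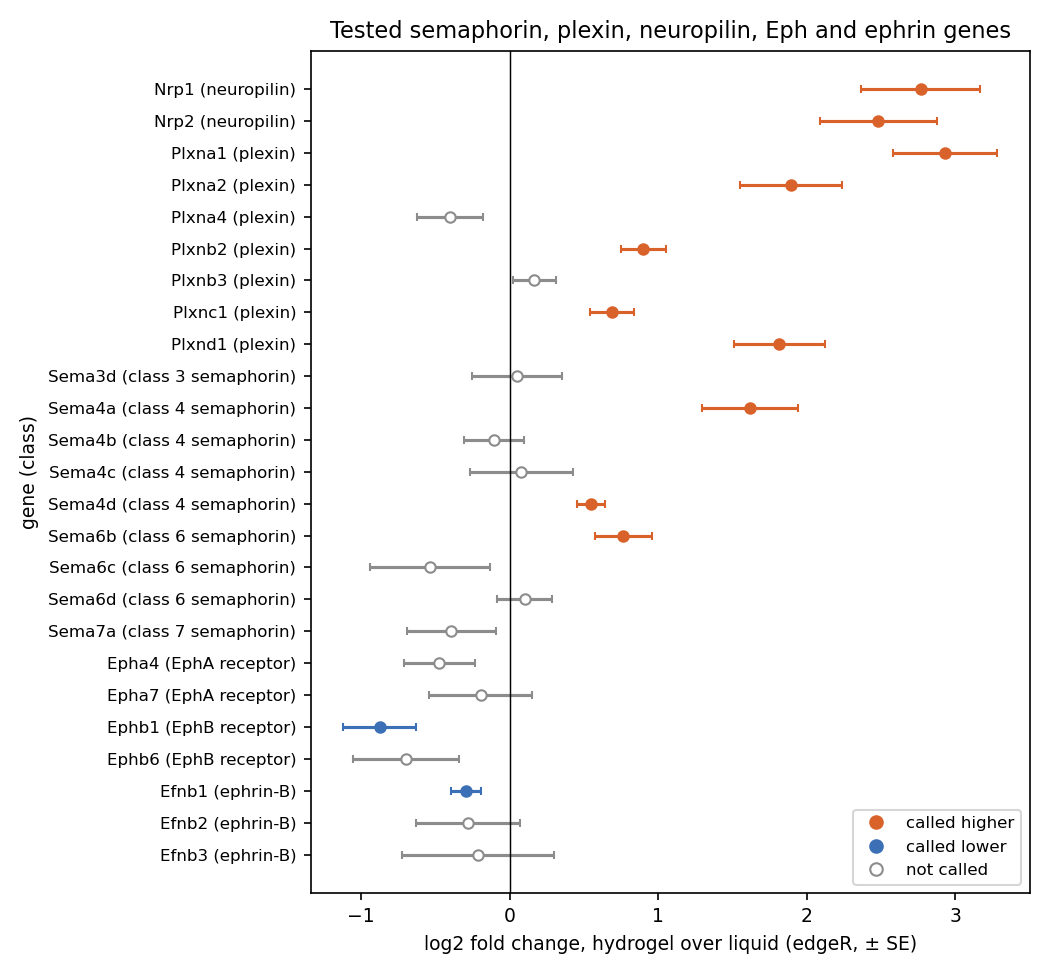
Log2 fold change (hydrogel over liquid, edgeR, with its standard error) of the 25 genes tested, ordered by class. Filled points passed the test at an adjusted p under 0.05; the neuropilins and Plxna1 lie furthest to the right, at 2.48 to 2.93, and the Eph and ephrin genes all lie left of 0.

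Nrp1 and Nrp2 encode the neuropilins, and their transcripts rose to a similar level. Nrp1 (ENSMUSG00000025810) stood at 5.07, 19.5, 6.32 and 8.43 CPM in liquid 1 to 4 and at 39.8, 78.6, 79.1 and 68.6 CPM in hydrogel 1 to 4. Every hydrogel library was above every liquid library, with hydrogel 1 the lowest of its group and liquid 2 the highest. The means were 9.82 ± 6.58 and 66.5 ± 18.5 CPM (SD, n = 4 each), a log2 change of 2.77 ± 0.40 (SE, adjusted p = 0.00106), which is 6.81-fold. Nrp2 (ENSMUSG00000025969) had 5.97, 23.0, 9.07 and 12.8 CPM in liquid and 38.8, 76.2, 94.6 and 74.2 CPM in hydrogel. It showed the same order of libraries at the ends of each group, with no overlap between the cultures. Its log2 change was 2.48 ± 0.40 (adjusted p = 0.0016), which is 5.59-fold. Without hydrogel 1 and liquid 2 the log2 changes were 3.52 for Nrp1 and 3.14 for Nrp2.

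Per kilobase of exon, Nrp1 made up 44.3 to 50.7% of the neuropilin total in the liquid libraries and 50.3 to 55.5% in the hydrogel libraries, so both genes were present at nearly equal levels in each library while their sum ran from 1.02 to 16.1 CPM per kilobase. The macrophage marker sum moved with this rise. Set against it, Nrp1 stood at 10.3 to 11.7 CPM per 1000 CPM of macrophage markers in hydrogel and at 4.37 to 9.01 in liquid, without overlap. Nrp2 stood at 10.6 to 12.3 and at 5.14 to 10.6, where the ranges met: liquid 2 was at 10.65 and hydrogel 1 at 10.56. These ratios depend on the markers summed. Lyz2 was the largest part of the sum, at means of 883 CPM in liquid and 3536 CPM in hydrogel, a 4.01-fold rise. Single markers ran from 1.34-fold (Cx3cr1, adjusted p = 0.435) to 101.5-fold (Marco). Mpeg1, at 6.85-fold, and Cd68, at 6.88-fold, rose about as much as Nrp1. The 18 markers had a median log2 change of 1.95, beside 2.77 for Nrp1 and 2.48 for Nrp2. Endothelial cells also carry neuropilins. Of 9 endothelial markers listed, 8 matched and 6 were tested, of which 1 rose (Cdh5) and 0 fell. Their sum was 151 to 175 CPM in liquid and 136 to 171 CPM in hydrogel. Most of it was Tie1, at means of 138 CPM in liquid and 125 CPM in hydrogel (adjusted p = 0.268), and Tek, at 21.2 and 18.8 CPM (adjusted p = 0.193). Plvap was at 3.66 and 2.29 CPM (adjusted p = 0.0993), Cdh5 at 0.306 and 0.854 CPM (adjusted p = 0.0111), and Emcn, which was not tested, at 0.126 and 0.332 CPM. The part of macrophages in the neuropilin rise was not tested beyond these values, and in bulk libraries more cells of a type and more RNA per cell cannot be told apart.

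The 250 bases before the annotated start of Nrp1, Nrp2 and Plxnd1, a plexin described below, are shown because these receptor genes rose together. They are RefSeq sequences of the GRCm38.p6 build, an older build than the one behind the counts. Searched on both strands were AGGAAG, a form of the ETS factor site that also contains the core read by the myeloid factor PU.1, and AGATAA, a form of the GATA site; matches are in capitals. The windows are chr8:128358823-128359072 (plus strand) for Nrp1, chr1:62703067-62703316 (plus strand) for Nrp2 and chr6:115995006-115995255 (minus strand) for Plxnd1, each written 5′ to 3′ along its gene.
Nrp1: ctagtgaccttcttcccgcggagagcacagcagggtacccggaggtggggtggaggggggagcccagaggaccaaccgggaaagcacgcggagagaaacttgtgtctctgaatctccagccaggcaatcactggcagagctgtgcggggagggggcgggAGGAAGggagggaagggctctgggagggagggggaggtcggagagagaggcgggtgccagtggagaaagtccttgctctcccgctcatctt
Nrp2: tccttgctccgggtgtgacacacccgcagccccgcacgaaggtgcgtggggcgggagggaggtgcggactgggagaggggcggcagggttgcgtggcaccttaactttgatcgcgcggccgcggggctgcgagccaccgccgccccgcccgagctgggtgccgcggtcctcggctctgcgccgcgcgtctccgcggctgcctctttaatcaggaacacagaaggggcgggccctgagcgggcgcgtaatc
Plxnd1: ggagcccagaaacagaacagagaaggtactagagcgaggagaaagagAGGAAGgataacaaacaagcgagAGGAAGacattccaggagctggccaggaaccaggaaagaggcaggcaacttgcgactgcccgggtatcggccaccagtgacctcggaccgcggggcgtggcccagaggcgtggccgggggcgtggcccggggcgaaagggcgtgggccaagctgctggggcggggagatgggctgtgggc

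Nrp1 had 1 match to AGGAAG, Plxnd1 had 2 and Nrp2 had 0, with a GC content of 64.4% for Nrp1, 64.8% for Plxnd1 and 72.4% for Nrp2. Of the 25 genes tested, 22 had entries in the promoter table, and Plxna1 was not among them. Of the plexins that rose and are not shown, Plxna2 and Plxnb2 had 0 matches to AGGAAG and Plxnc1 had 2. Among the genes that rose, 6 of 16 promoter windows (9 genes) held AGGAAG, which is 37.5%, as did 2 of 2 among those that fell and 3 of 16 (18.8%) among those not called, beside 29.5% of all 32851 windows. AGATAA was in 0 of all these windows, beside 9.99% of all windows. A match is a stretch of letters in this window and no evidence of binding.

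Plxna1 had the largest rise of the 25 genes tested. Plexin-A1 is a receptor for class 3 semaphorins with neuropilins and for class 6 semaphorins, and in myeloid cells it pairs with TREM2 and the adaptor DAP12, the product of Tyrobp. Plxna1 (ENSMUSG00000030084) stood at 16.7, 48.7, 28.5 and 26.7 CPM in liquid 1 to 4 and at 121.7, 279, 297 and 222 CPM in hydrogel 1 to 4. The highest liquid library, liquid 2, was well below the lowest hydrogel library, hydrogel 1. The log2 change was 2.93 ± 0.35 (SE, adjusted p = 0.000517), a 7.63-fold rise. Set against the macrophage marker sum, Plxna1 stood at 33.1 to 41.3 CPM per 1000 CPM in hydrogel and at 14.4 to 28.1 in liquid, without overlap. This ratio too depends on the markers summed. Lyz2, the largest part, rose 4.01-fold, and the 18 markers had a median log2 change of 1.95. Mertk, a small part at means of 2.60 CPM in liquid and 20.3 CPM in hydrogel, rose 7.90-fold.

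Plxnd1 and Plxna2 also rose more than 2-fold. Plexin-D1 is the receptor for Sema3E and is known from blood vessels and from immune cells. Plxnd1 (ENSMUSG00000030123) had 25.3, 58.5, 29.1 and 27.6 CPM in liquid and 71.7, 151, 153 and 118 CPM in hydrogel. Liquid 2 lay far from the other liquid libraries and still below hydrogel 1. Its log2 change was 1.82 ± 0.31 (adjusted p = 0.00212), and its partner ligand gene Sema3e had 12 counts over all libraries. Plxna2 (ENSMUSG00000026640), whose protein binds class 6 semaphorins and, with neuropilins, class 3 semaphorins, was a low transcript: 2.05, 3.35, 2.79 and 1.59 CPM in liquid and 4.22, 10.2, 12.9 and 9.06 CPM in hydrogel. The cultures did not overlap, and the log2 change was 1.89 ± 0.34 (adjusted p = 0.0029). Against the macrophage marker sum, the ranges of Plxnd1 (21.8 to 28.6 per 1000 CPM in liquid, 17.8 to 22.4 in hydrogel) and of Plxna2 (1.26 to 2.75 and 1.15 to 1.68) overlapped between the cultures.

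Plxnb2 and Plxnc1 rose by less. Plexin-B2 is a receptor for class 4 semaphorins that many cell types carry. Plxnb2 (ENSMUSG00000036606) had 76.4, 109.5, 76.5 and 77.7 CPM in liquid and 123, 181, 181.6 and 150 CPM in hydrogel. No library crossed over, and the log2 change was 0.90 ± 0.15 (adjusted p = 0.00221). Plexin-C1 is the receptor of the class 7 semaphorin. Plxnc1 (ENSMUSG00000074785) had 68.3, 81.4, 63.4 and 59.8 CPM in liquid and 81.8, 118, 135 and 105 CPM in hydrogel. Liquid 2, at 81.37 CPM, and hydrogel 1, at 81.79 CPM, were nearly level, and the log2 change was 0.69 ± 0.15 (adjusted p = 0.00705). Set against the macrophage markers both were lower in every hydrogel library: Plxnb2 stood at 50.7 to 75.4 CPM per 1000 CPM of those markers in liquid and at 22.6 to 33.3 in hydrogel, and Plxnc1 at 37.6 to 62.5 and 15.9 to 22.2.

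Plxna4 was the most abundant plexin in liquid and did not pass the test. Plexin-A4, like plexin-A2, binds class 6 semaphorins and, with neuropilins, class 3 semaphorins. Plxna4 (ENSMUSG00000029765) stood at 312, 191, 414 and 297 CPM in liquid 1 to 4 and at 313, 196, 209 and 200.3 CPM in hydrogel 1 to 4. Hydrogel 1 was level with liquid 1, and liquid 2 lay below all the hydrogel libraries, so the cultures overlapped through exactly the pair of libraries that stood apart. The log2 change was −0.40 ± 0.22 (adjusted p = 0.203). It was −0.57 (adjusted p = 0.0282) without liquid 2, and −0.74 (adjusted p = 0.000117) without both hydrogel 1 and liquid 2. Those libraries were picked from these same data as the nearest to the other culture, so leaving them out can by itself widen the contrast. Over all genes, calls went from 4052 to 5633 without both. The megakaryocyte marker sum varied alongside: Plxna4 stood at 7.38 to 9.90 CPM per 1000 CPM of megakaryocyte markers in liquid and at 8.85 to 10.2 in hydrogel. The antisense genes Plxna4os1 and Plxna4os3 had 38 and 7 counts in all, against 75191 for Plxna4.

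**Figure D2:**
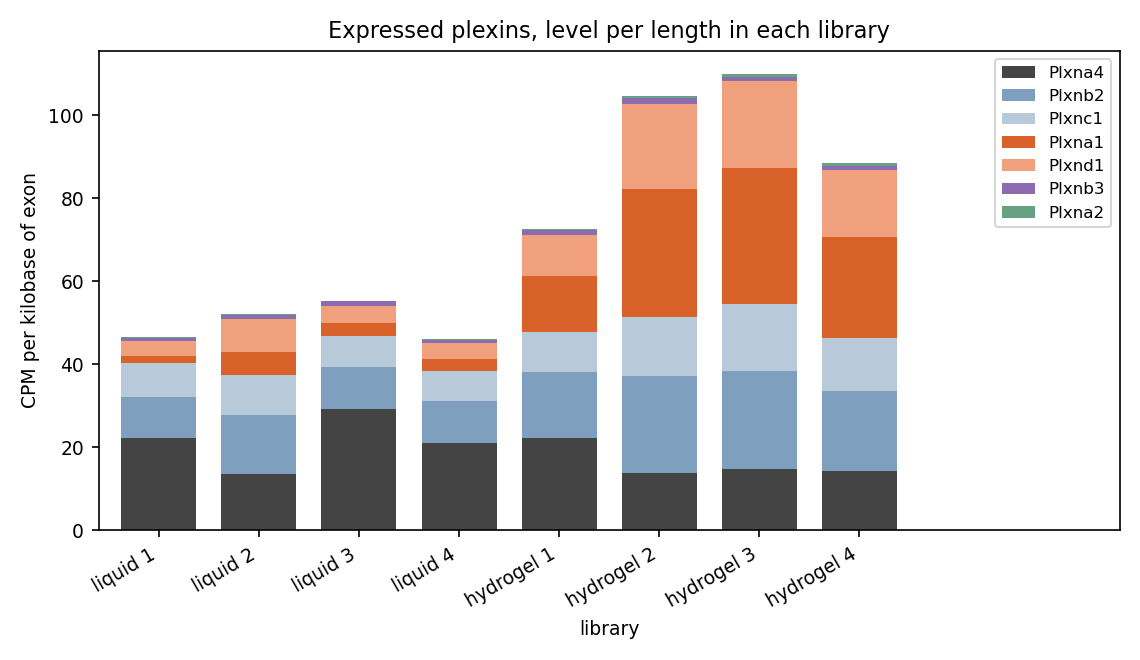
Level per length of the 7 expressed plexins, stacked for each library (CPM per kilobase of exon). The total was 46.1 to 55.3 in the liquid and 72.6 to 110.1 in the hydrogel libraries; Plxna4 (bottom) is the largest block in liquid 1, 3 and 4 (45.7 to 53.0%), and Plxna1 is a larger share of every hydrogel bar (18.5 to 29.8%) than of any liquid bar (3.96 to 10.3%).

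The makeup of the plexin transcripts differed between the cultures on the scale of CPM per kilobase of exon. Plxna4 made up 43.1 ± 11.8% of the plexin total in liquid and 18.3 ± 8.26% in hydrogel (SD, n = 4 each). Its share in liquid 2, 26.0%, was below that in hydrogel 1, 30.6%. Plxna1 made up 3.96 to 10.3% in liquid and 18.5 to 29.8% in hydrogel, without overlap. The share of Plxnb2 was 17.9 to 27.2% in liquid and 21.4 to 22.3% in hydrogel. Plxnb3, the plexin that binds Sema5A, had 5.81, 6.77, 7.75 and 6.21 CPM in liquid and 8.14, 8.25, 7.30 and 6.11 CPM in hydrogel, overlapping sets with a log2 change of 0.17 ± 0.14 (adjusted p = 0.421).

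**Figure D3:**
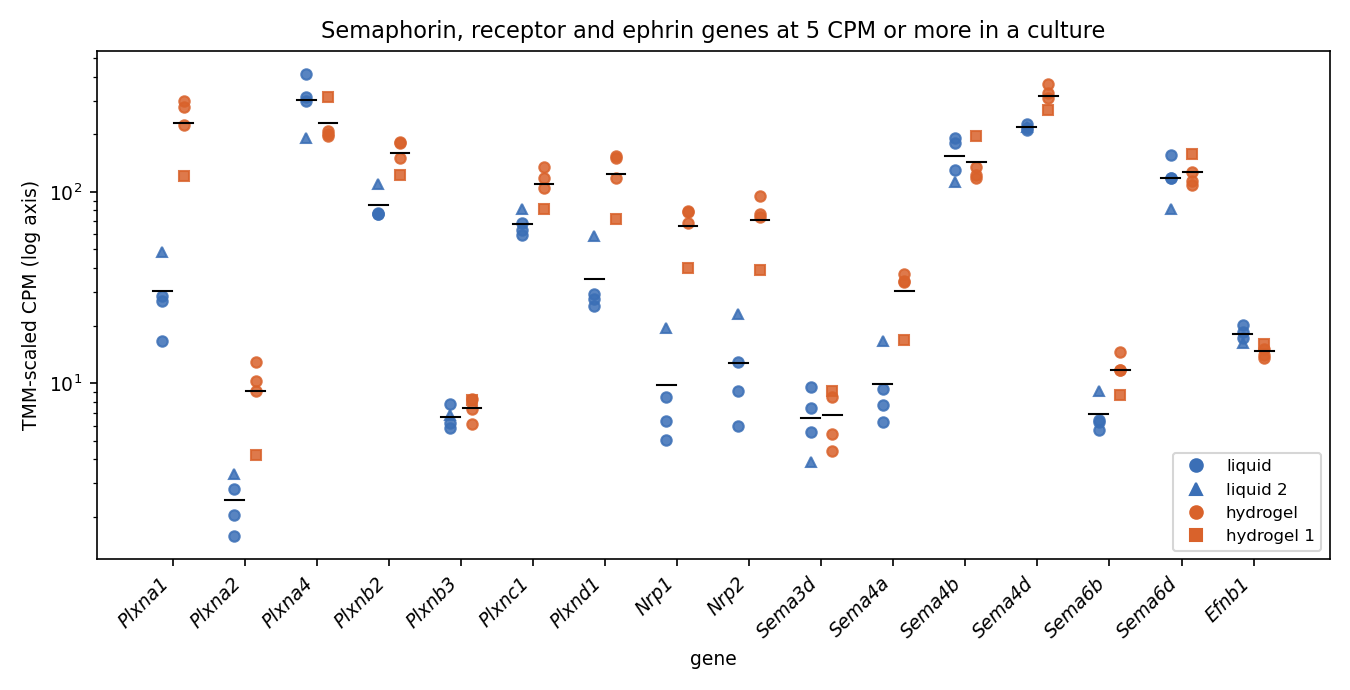
TMM-scaled CPM (log axis) of the 16 genes with a mean of at least 5 CPM in a culture, 1 point per library and a line at each mean. Squares are hydrogel 1 and triangles liquid 2, which lie nearest the other culture in Plxna1, Nrp1 and Nrp2; in Plxna4 hydrogel 1 is the highest hydrogel library (313 CPM) and liquid 2 the lowest liquid library (191 CPM).

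Among the ligands, Sema4d had the highest mean level per kilobase of exon in both cultures (in liquid its range overlapped that of Sema4b), and it rose. Sema4D, or CD100, is a transmembrane semaphorin of platelets and lymphocytes that binds plexin-B1, plexin-B2 and CD72. Sema4d (ENSMUSG00000021451) stood at 212, 217, 215 and 226 CPM in liquid and at 268, 327, 367 and 310 CPM in hydrogel. The liquid libraries were close together and all below the hydrogel libraries, and liquid 2 did not stand apart. The log2 change was 0.55 ± 0.09 (adjusted p = 0.00217), a 1.46-fold rise. Of its plexin receptors, Plxnb2 rose, as above, and Plxnb1 had 9 counts in all. Sema4d stood at 8.73 to 16.1 CPM per 1000 CPM of megakaryocyte markers in hydrogel and at 5.15 to 8.38 in liquid, and at 46.7 to 72.8 and 100.5 to 212 per 1000 CPM of macrophage markers.

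Sema4a had the largest rise among the semaphorins. Sema4A is known as a ligand made by dendritic cells and other myeloid cells. Sema4a (ENSMUSG00000028064) had 9.31, 16.5, 6.29 and 7.67 CPM in liquid and 16.8, 34.1, 37.1 and 33.7 CPM in hydrogel. Hydrogel 1 was only just above liquid 2, and the other libraries were well apart. The log2 change was 1.62 ± 0.32 (adjusted p = 0.00483), 3.07-fold. Against the macrophage marker sum it stood at 6.09 to 8.02 CPM per 1000 CPM in liquid and at 4.57 to 5.09 in hydrogel. Of 8 dendritic cell markers, 6 were tested, 1 rose and 5 fell, their sum was 29.9 to 53.5 CPM in liquid and 17.0 to 20.7 CPM in hydrogel, and Xcr1 was at 0 in hydrogel.

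Sema6b, a transmembrane ligand of plexin-A receptors, rose 1.70-fold. It (ENSMUSG00000001227) had 6.26, 9.14, 6.40 and 5.71 CPM in liquid and 8.66, 14.6, 11.8 and 11.7 CPM in hydrogel. Liquid 2 was above hydrogel 1, so the cultures overlapped by that pair, and the log2 change was 0.77 ± 0.19 (adjusted p = 0.0143).

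The other abundant ligands did not pass the test. Sema4b stood at 181, 113, 191 and 130 CPM in liquid and at 197, 118, 135 and 123 CPM in hydrogel, with a log2 change of −0.10 ± 0.20 (adjusted p = 0.737). Sema6d, a ligand of plexin-A1, stood at 118, 81.0, 156 and 118 CPM in liquid and at 157, 114.5, 128 and 108 CPM in hydrogel, a log2 change of 0.10 ± 0.18 (adjusted p = 0.717). In both genes hydrogel 1 was the highest hydrogel library and liquid 2 the lowest liquid library, as in Plxna4. Without both of those libraries Sema4b was at −0.40 (adjusted p = 0.0182) and Sema6d at −0.15 (adjusted p = 0.29). As for Plxna4, the libraries left out were picked from these same data.

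Sema3d was the only class 3 semaphorin with enough counts to be tested. Class 3 semaphorins are the secreted ligands of the neuropilin and plexin-A complexes. It stood at 7.42, 3.88, 9.53 and 5.53 CPM in liquid and at 9.04, 5.44, 8.43 and 4.43 CPM in hydrogel, overlapping throughout, with a log2 change of 0.05 ± 0.30 (adjusted p = 0.921). The other 6, Sema3a, Sema3b, Sema3c, Sema3e, Sema3f and Sema3g, had 4 to 35 counts in all. Sema7a, a lipid-anchored ligand of plexin-C1 and of integrins, had means of 4.08 ± 1.58 CPM in liquid and 3.09 ± 0.771 CPM in hydrogel (adjusted p = 0.357). Sema4c (1.27 ± 0.719 and 1.33 ± 0.107 CPM, adjusted p = 0.89) and Sema6c (0.668 ± 0.132 and 0.461 ± 0.240 CPM, adjusted p = 0.352) were low.

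Eph and ephrin transcripts were few beside the semaphorin system, and those that changed were lower in hydrogel. Ephrin-B1, a ligand that itself signals into its own cell, was the only one with a culture mean above 5 CPM. Efnb1 (ENSMUSG00000031217) had 18.6, 16.2, 20.1 and 17.2 CPM in liquid and 16.1, 13.5, 15.1 and 14.1 CPM in hydrogel. The cultures did not overlap, though liquid 2 was barely above hydrogel 1, and the log2 change was −0.29 ± 0.10 (adjusted p = 0.0496). The call was lost when hydrogel 2 (adjusted p = 0.145), hydrogel 3 (0.0915), hydrogel 4 (0.123), liquid 1 (0.101), liquid 3 (0.121) or liquid 4 (0.072) was left out. Set against the megakaryocyte marker sum, Efnb1 stood at 0.445 to 0.625 CPM per 1000 CPM in liquid and at 0.525 to 0.665 in hydrogel, with overlap.

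Ephb1 encodes an ephrin-B receptor found on platelets. Ephb1 (ENSMUSG00000032537) had 1.35, 1.15, 1.43 and 1.56 CPM in liquid and 0.822, 0.812, 0.839 and 0.518 CPM in hydrogel, all below the liquid libraries. Its log2 change was −0.88 ± 0.25 (adjusted p = 0.0234). Leaving out hydrogel 2 (adjusted p = 0.0553), hydrogel 4 (0.0625), liquid 3 (0.0526) or liquid 4 (0.0639) ended the call, as did the replicate number as a block (0.0532). Per 1000 CPM of megakaryocyte markers, Ephb1 stood at 0.0342 to 0.0444 CPM in liquid and at 0.0229 to 0.0385 in hydrogel, with overlap. The part of megakaryocytes in the falls of Efnb1 and Ephb1 was not tested. The expressed receptors Epha4 and Ephb6, the latter with an inactive kinase, did not pass. Epha4, also known from platelets, had means of 4.16 ± 1.18 CPM in liquid and 3.01 ± 0.559 CPM in hydrogel. Its log2 change was −0.47 ± 0.24 (adjusted p = 0.165). It became −0.65 (adjusted p = 0.0212) without liquid 2, a library picked from these same data. Ephb6 had 1.82 ± 0.836 and 1.11 ± 0.356 CPM (adjusted p = 0.173), Efnb2 1.36 ± 0.472 and 1.12 ± 0.402 CPM (adjusted p = 0.578), Efnb3 0.774 ± 0.308 and 0.659 ± 0.372 CPM (adjusted p = 0.789) and Epha7 0.689 ± 0.200 and 0.601 ± 0.236 CPM (adjusted p = 0.711).

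Efna5 is the gene of ephrin-A5, a lipid-anchored ligand, and it was just short of the count filter. It had 24, 6, 16 and 18 counts in liquid 1 to 4 and 3, 4, 2 and 2 counts in hydrogel 1 to 4, which is 0.449 ± 0.243 and 0.0862 ± 0.0268 CPM. Every hydrogel library was below every liquid library. It was tested under 7 alternatives and called lower in all 7, for example with no filter (log2 change −2.33, adjusted p = 0.0125) and with DESeq2 (−2.36, adjusted p = 0.00499). These fits share most of their libraries and are not independent of each other. Where a filter was applied, Efna5 could pass it only through the liquid libraries, where it was high. It was singled out after its values were seen.

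Per kilobase of exon, the order of levels differed between the cultures. In liquid it began with Sema4d (28.3 ± 0.802 CPM per kilobase), Sema4b (27.2 ± 6.77), Plxna4 (21.5 ± 6.45), Sema6d (11.2 ± 2.90), Plxnb2 (11.0 ± 2.11) and Plxnc1 (8.17 ± 1.13). Each of the first 4 overlapped in range with the next, and Plxnb2 and Plxnc1 did not overlap. In hydrogel it began with Sema4d (41.4 ± 5.39), which was only just apart from Sema4b. The lowest Sema4d value was 34.855 and the highest Sema4b value 34.836, both in hydrogel 1. After Sema4d came Plxna1 (25.4 ± 8.72), Sema4b (25.3 ± 6.44), Plxnb2 (20.6 ± 3.66), Plxnd1 (16.9 ± 5.21) and Plxna4 (16.3 ± 3.98), each overlapping the next. Plxna1 was in place 9 in liquid and in place 2 in hydrogel, and Nrp1 in places 15 and 9.

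Whole groups of libraries lay apart in 11 of the 25 genes tested: 9 were higher in all hydrogel libraries than in any liquid library, and 2 were lower in all of them. Among all genes tested these shares were 14.6% and 13.8%. In each of the 10 genes that rose, hydrogel 1 was the lowest hydrogel library, and in 9 of them (not in Sema4d) liquid 2 was the highest liquid library. All 10 were called higher under every alternative fit, including each single omission and the omission of both libraries, except that Sema6b did not pass at an adjusted p under 0.01.

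**Figure D4:**
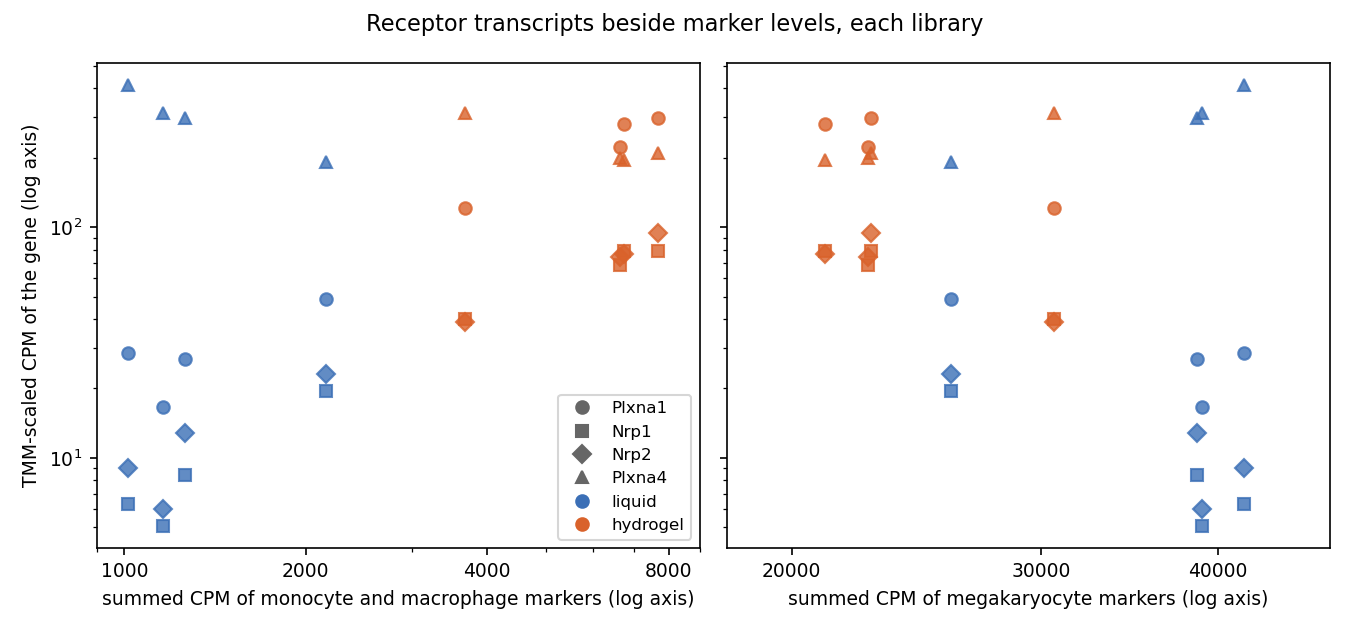
TMM-scaled CPM of Plxna1, Nrp1, Nrp2 and Plxna4 against the summed CPM of the monocyte and macrophage markers (left) and of the megakaryocyte markers (right), 1 point per gene and library, all axes logarithmic. In the left panel the points at 2161 CPM of macrophage markers are liquid 2 and those at 3677 CPM hydrogel 1. Plxna1 and the neuropilins are higher in hydrogel, where the macrophage sum is higher. Within hydrogel the sum, Plxna1 and both neuropilins ordered the libraries alike: hydrogel 1 lowest, then hydrogel 4, hydrogel 2 and hydrogel 3. Within liquid, liquid 2 was highest in all of them and the order otherwise differs in part. Liquid 1 had a higher sum (1161 CPM) than liquid 3 (1015 CPM) and less of Plxna1 and both neuropilins.

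Genes that act with semaphorins and plexins inside the cell or as co-receptors moved in both directions. Of 45 listed, 37 were tested, 10 rose and 7 fell, with a median log2 change of −0.16, beside 15.1% higher and 14.1% lower over all genes tested. The 7 that fell became 13 when liquid 2 was left out and 15 when hydrogel 1 was left out as well. Trem2 and Tyrobp, the plexin-A1 partners, rose. Trem2 had means of 18.6 ± 8.73 CPM in liquid and 69.8 ± 21.6 CPM in hydrogel (adjusted p = 0.00205), and Tyrobp of 44.1 ± 21.6 and 178 ± 56.5 CPM (adjusted p = 0.00224). Both are also macrophage transcripts, and the macrophage marker sum rose with them. Rnd3, a GTPase gene whose family binds plexins, rose 4.16-fold (adjusted p = 0.00253). Rnd1 (adjusted p = 0.965) and Rnd2 (adjusted p = 0.0885) of that family were not called. Mical2, which encodes an actin-oxidising enzyme of the family that acts downstream of plexin-A, fell from 14.4 ± 1.91 to 3.59 ± 0.573 CPM (adjusted p = 0.000113). Its family did not move as one: Mical1 rose from 5.90 ± 3.70 to 18.1 ± 5.30 CPM (adjusted p = 0.0112) and Mical3 was not called (adjusted p = 0.189). Dpysl2, the gene of CRMP2, a mediator of Sema3A signalling, fell from 42.2 ± 5.80 to 23.0 ± 1.58 CPM (adjusted p = 0.000501).

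The VEGF genes that share the neuropilins also diverged. Of 8 listed, 5 were tested, 1 rose and 2 fell, where 15.1% and 14.1% of all genes tested did. The number that rose was 2 with no filter or with DESeq2 and 3 without both hydrogel 1 and liquid 2. Kdr, the gene of VEGF receptor 2, fell 2.36-fold from 113 ± 14.5 to 48.2 ± 8.23 CPM (adjusted p = 0.000337), and the ligand gene Vegfc fell 3.76-fold from 16.8 ± 5.18 to 4.45 ± 1.10 CPM (adjusted p = 0.000598). The ligand genes Vegfa (28.7 ± 4.70 and 29.8 ± 3.13 CPM, adjusted p = 0.769) and Vegfb (12.9 ± 1.74 and 14.6 ± 2.45 CPM, adjusted p = 0.415) were not called. Flt1, the gene of VEGF receptor 1, rose from 111 ± 43.9 to 241 ± 45.6 CPM (adjusted p = 0.00836). It was highest in hydrogel 1 among the hydrogel libraries (299 CPM) and in liquid 3 among the liquid libraries (171 CPM), which held the lowest macrophage marker sum of each culture.

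For the Eph and ephrin system, 35 of 40 listed partners were tested, 7 rose and 9 fell, with a median log2 change of −0.02, beside the same 15.1% and 14.1% over all genes tested. The number that rose was 4 without hydrogel 2, hydrogel 4 or liquid 4 and 11 without both hydrogel 1 and liquid 2, and the number that fell was 5 without hydrogel 2 or hydrogel 4. Ptpro, the gene of a phosphatase that acts on Eph receptors, rose from 2.84 ± 1.54 to 14.6 ± 4.93 CPM (adjusted p = 0.00153). Vav2, an exchange factor recruited to Eph receptors, rose 2.17-fold (adjusted p = 0.00765), and the adaptor gene Shb 1.49-fold (adjusted p = 0.00446). Src, of the kinase that relays ephrin-B signals, fell 1.59-fold from 537 ± 82.0 to 337 ± 28.0 CPM (adjusted p = 0.00219), and Chn2, a chimaerin gene, fell 1.36-fold (adjusted p = 0.00161). Of 25 Slit, Robo, netrin and related guidance genes, 14 were tested, 2 rose and 2 fell, against 15.1% and 14.1% of all genes tested. The number that rose was 5 without liquid 2, with or without hydrogel 1, 4 with the replicate block and 0 with a filter of at least 1 CPM in 4 libraries. Robo3 fell from 67.1 ± 10.6 to 44.0 ± 5.27 CPM (adjusted p = 0.00478) and Ntn4 from 12.6 ± 3.33 to 5.68 ± 1.39 CPM (adjusted p = 0.00495). The 2 that rose, Neo1 and Unc5b, are named here after their values were seen, and their means were under 1 CPM in both cultures. Neo1 had a hydrogel mean of 0.834 ± 0.162 CPM and Unc5b of 0.960 ± 0.189 CPM.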

How the data were processed

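Poly(A) RNA was sequenced from 4 hydrogel and 4 liquid cultures (stranded mRNA kit, per the labels' protocols). The authors deposited raw counts per gene, made with bcl2fastq, STAR 2.7.10b and HTSeq 0.13.5 on GRCm39, per the submitters' processing notes. The annotation release and strand setting of the counting were not given in the sources used here. Symbols were matched to 26534 of the 27679 identifiers. Genes were filtered with filterByExpr, scaled by TMM and tested with edgeR 4.0.16 (R 4.3.3) by the quasi-likelihood test, with Benjamini-Hochberg adjustment over 13845 genes and a threshold of 0.05. The method was tested on simulated data. Exon lengths came from GENCODE vM21 (GRCm38). DESeq2 1.42.0 and limma 3.58.1 were alternatives. Genes were named if they passed the filter, with all library values where called or at 5 CPM or more. From each pathway list up to 5 called genes with the smallest adjusted p and at least 1 CPM were named. The other Mical and Rnd genes listed were named beside Mical2 and Rnd3, and Vegfa and Vegfb beside Vegfc. The genes, lists and motifs were chosen with earlier results of these data known.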

Additional observations from a re-analysis of the deposited data

Results flagged for a closer look

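Within each culture, the highest and lowest library of each of the 25 genes tested was compared with its nearest neighbour by Dixon's ratio of gap to range, against its 95% critical value. Of 50 groups, 5 passed, where chance flags about 1 in 20 groups. Ephb1 was low in hydrogel 4 (0.518 CPM, the others 0.812 to 0.839, ratio 0.916). Sema4a was low in hydrogel 1 (16.8 CPM, the others 33.7 to 37.1, ratio 0.836), and Plxna4 was high in the same library (313 CPM, the others 196 to 209, ratio 0.887). Plxnb2 was high in liquid 2 (109.5 CPM, the others 76.4 to 77.7, ratio 0.961), as was Plxnd1 (58.5 CPM, the others 25.3 to 29.1, ratio 0.887).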

How the results depend on the processing

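The 10 genes that rose stayed called under all 17 alternatives. The number that rose was 9 at an adjusted p under 0.01. The number that fell, 2, was 1 with DESeq2 size factors or library totals alone (Ephb1), the replicate block (Efnb1) or no filter (Efna5, with both others lost), and 2 with DESeq2 (Ephb1 and Efna5). It was 6 without hydrogel 1 and liquid 2, and 0 at an adjusted p under 0.01; single omissions gave 0 (without liquid 3 or liquid 4) to 5 (without liquid 2). Efnb1 lost its call with DESeq2 size factors (adjusted p = 0.0527), library totals (0.0876), no filter (0.104) and DESeq2 (0.0529), and Ephb1 with no filter (0.0585). Over all genes 4052 were called, 2091 at an adjusted p under 0.01, and 2700 (without hydrogel 2) to 4975 (without liquid 2) with 1 library left out. The number was 5633 without both hydrogel 1 and liquid 2, which were picked from these data as the nearest to the other culture. Genes expressed numbered 25 at 0.5 CPM and 18 at 2 CPM. Log2 changes of 6 uncalled genes changed sign in some fits, and the cause was not tested. With 1 library left out, Sema3d ran from −0.13 (without liquid 2) to 0.28 (without liquid 3), Sema4b from −0.30 (without hydrogel 1) to 0.017 (without liquid 3), and Sema4c from −0.10 (without liquid 4) to 0.54 (without liquid 2). Sema6d ran from −0.045 (without liquid 2) to 0.26 (without liquid 3), and Efnb3 from −0.42 (without liquid 4) to 0.12 (without hydrogel 3). With upper-quartile scaling Sema3d was at −0.00035. Without both hydrogel 1 and liquid 2, Sema3d was at −0.29, Sema6d at −0.15 and Epha7 at 0.093. Same-numbered libraries correlated at 0.22, 0.33, −0.13 and 0.10 in their deviations from the culture means, so the numbers were not taken as pairs; with the replicate block 10 of the genes rose and 1 fell, and 4238 of all genes were called. Of 144 pathway list counts under alternatives, 125 were within 1.5 times the main count. The 24 untested genes, at 1 to 75 counts, were kept out by the filter; of those tested under an alternative, Efna5 alone was called.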
